A study of Mus musculus with 26 samples.

Results

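Genes of the Pax, Dlx, Irx, Lhx and sine oculis homeobox families encode transcription factors of embryonic patterning, and the open chromatin around 34 of them was read here in mouse pluripotent cells. The members were all protein-coding genes of the RefSeq table whose names follow those of these families (Pax1 to Pax9, Dlx1 to Dlx6, Irx1 to Irx6, Lhx2 to Lhx9 and sine oculis homeobox genes such as Six2 to Six6), which gave 34, with 9 Pax, 6 Dlx, 6 Irx and 7 Lhx genes, among 21883 protein-coding genes. Pax proteins bind DNA through a paired domain, and several carry a homeodomain as well. The products of the sine oculis homeobox genes act with Eya and Dach cofactors, Lhx proteins bind Ldb cofactors through their LIM domains, Dlx genes lie in convergent pairs and pattern the forebrain, jaws and limbs, and Irx genes lie in clusters and pattern nervous system, heart and limb. In pluripotent cells such genes are mostly silent, and many of their promoters are rich in CG dinucleotides and carry both active and Polycomb marks.

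The series measured accessible DNA by ATAC-seq (the transposase Tn5 inserts adapters where chromatin is open) in 26 libraries of 50000 cells each. Formative stem cells came as the lines FS1 (passage 21) and FS2 (passage 29), cultured in A3XR, with 3 libraries each. Epiblast stem cells were cultured in AF (EpiSC_AF, passage 22, 3 libraries) or in AFX (EpiSC_AFX1 at passage 14 and EpiSC_AFX2 at passage 16, 3 libraries each), and embryonic stem (ES) cells were cultured in 2iL (passage 16, 3 libraries). A separate set, titled WT, used cells with the source names Rd2GFP, Rd2EpiLC and Rd2AFX: Rd2_ES in 2iL (passage 33, 2 libraries), epiblast stem cells Rd2_AFX in AFX (passage 16, 2 libraries) and Rd2_EpiLC (epiblast-like cells, 4 libraries), which came from ES cells by induction for 2 days in AF with added KSR and a sort for low GFP. Nothing in the labels says that the libraries of a group came from separate cultures, so each p measures the spread between libraries, which may be technical. FS1, FS2, EpiSC_AFX1 and EpiSC_AFX2 are treated below as separate lines, and ES and EpiSC_AF each came under 1 name. Passage number differs together with the medium between most groups, so the influence of the 2 cannot be told apart.

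Each library was available as a list of called peaks, with no read counts, so the sequencing depth was unknown and the list length served as its nearest stand-in. The lists held between 8044 and 10961 peaks in ES cells, 11796 to 31263 in FS cells, 15505 to 24824 in EpiSC_AF, 17701 to 29575 in EpiSC_AFX, 471 and 2576 in Rd2_ES, 7469 to 26045 in Rd2_EpiLC and 10719 and 11252 in Rd2_AFX. For every gene the peaks that overlapped its span plus 20 kb on each side were counted, called the gene window below. Counts were made in the lists as deposited and, in the first set, in the 8044 strongest peaks of every list, called equal list length. The labelled states were visible in part of the marker windows. At equal list length Zfp42 and Tbx3, 2 of 7 naive markers tested, had more peaks in ES cells than in each of the other 3 cell types by limma's test. The naive markers Nr5a2 and Dppa3 had no ES peak there, and in the lists as deposited Esrrb and Nr5a2 were called lower in ES than in EpiSC_AFX. No ES list gave the formative and primed markers together more than 2 peaks at equal length, against 3 to 12 in the others. Of 8 such markers tested, 0 were called against FS, 3 against EpiSC_AFX and 3 against EpiSC_AF, all lower in ES.

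The members are compact genes with a median span of 9.90 kb, against 17.2 kb for all genes, and 8 of them share windows because their pairs lie side by side (Dlx1 with Dlx2, Dlx3 with Dlx4, Dlx5 with Dlx6, Six2 with Six3). Another protein-coding gene reaches into the window of 18 members. RefSeq promoter sequences of build GRCm38.p6, running from 250 bases before to 50 bases after an annotated start, matched 23 members through 31 entries. The other members, such as Dlx3, Dlx5, Irx5 and Pax3, had no entry in that table. The 5 sequences below show the range of the data: a promoter open in nearly every list, 2 that were open in no ES list and in most other lists, and 2 without a peak in any list. Each is written 5′ to 3′ on the strand of its gene, and capitals mark CG dinucleotides.
Six4 (chr12:73113196-73113495, minus strand, peak in 24 of 26 lists): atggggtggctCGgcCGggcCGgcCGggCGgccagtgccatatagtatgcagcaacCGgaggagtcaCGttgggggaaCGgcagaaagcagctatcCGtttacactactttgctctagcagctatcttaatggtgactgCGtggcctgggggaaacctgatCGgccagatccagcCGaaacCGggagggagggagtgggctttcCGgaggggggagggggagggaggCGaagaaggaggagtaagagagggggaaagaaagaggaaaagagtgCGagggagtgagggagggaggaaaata
Six2 (chr17:85688205-85688504, minus strand, peak in 17 lists, none from ES cells): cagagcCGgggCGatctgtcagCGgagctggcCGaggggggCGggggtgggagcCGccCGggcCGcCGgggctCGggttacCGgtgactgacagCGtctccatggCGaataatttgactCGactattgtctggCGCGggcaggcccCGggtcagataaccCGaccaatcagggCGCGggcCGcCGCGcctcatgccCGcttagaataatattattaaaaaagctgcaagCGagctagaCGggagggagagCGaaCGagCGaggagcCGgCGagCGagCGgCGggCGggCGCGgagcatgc
Dlx2 (chr2:71546705-71547004, minus strand, peak in 17 lists, none from ES cells): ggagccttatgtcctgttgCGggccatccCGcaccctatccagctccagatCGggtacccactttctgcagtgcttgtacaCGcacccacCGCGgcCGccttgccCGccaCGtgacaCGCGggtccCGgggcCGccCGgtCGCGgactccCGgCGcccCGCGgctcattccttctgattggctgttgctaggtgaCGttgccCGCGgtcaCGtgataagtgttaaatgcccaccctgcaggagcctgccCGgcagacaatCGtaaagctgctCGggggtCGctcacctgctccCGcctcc
Pax5 (chr4:44710645-44710944, minus strand, peak in none of 26 lists): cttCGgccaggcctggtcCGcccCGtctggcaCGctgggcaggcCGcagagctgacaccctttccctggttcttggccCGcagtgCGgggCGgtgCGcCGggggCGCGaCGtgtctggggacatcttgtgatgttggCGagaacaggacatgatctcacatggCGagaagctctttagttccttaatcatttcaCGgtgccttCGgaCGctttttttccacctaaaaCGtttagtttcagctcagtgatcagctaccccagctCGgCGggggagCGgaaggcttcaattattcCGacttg
Lhx8 (chr3:154330511-154330810, minus strand, peak in none of 26 lists): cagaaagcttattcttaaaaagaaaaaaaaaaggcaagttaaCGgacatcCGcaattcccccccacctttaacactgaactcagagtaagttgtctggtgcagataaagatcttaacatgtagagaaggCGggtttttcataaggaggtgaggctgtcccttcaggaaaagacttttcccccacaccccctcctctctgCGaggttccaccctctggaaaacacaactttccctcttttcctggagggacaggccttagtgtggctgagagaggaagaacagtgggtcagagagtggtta
The CG counts of these 5 windows were 16 in Six4, 37 in Six2, 29 in Dlx2, 23 in Pax5 and 4 in Lhx8. The richest and the poorest of all 31 entries were those of Six2 and Lhx8, and the median was 17 against 13 over 21262 promoters. A rich promoter was thus open in most lists at Six2 and Dlx2 and in none at Pax5.

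Within the first set, peaks at the members were few among the strong peaks of every cell type, and their mean number was lowest in ES cells. The 8044 strongest peaks were the whole list of ES replicate 2, but only a part of each FS and EpiSC list. In the 8044 strongest peaks, the 34 windows together held 8, 9 and 6 distinct peaks in the 3 ES libraries, 8 to 15 in FS (median 11), 15, 11 and 11 in EpiSC_AF and 11 to 17 in EpiSC_AFX (median 14). The means were 7.67 ± 1.53 (SD, n = 3) in ES, 11 ± 2.45 (n = 6) in FS, 12.3 ± 2.31 (n = 3) in EpiSC_AF and 14.2 ± 2.23 (n = 6) in EpiSC_AFX. All ES libraries lay below all EpiSC libraries, while ES and FS overlapped. Since no read depth was known and fewer open cells and less opening per cell give the same lower signal, the peak counts cannot tell these apart.

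In every library of the first set, a smaller share of members than of genes held a strong peak. The share of members was 21.6% ± 6.12 in ES, 29.4% ± 7.20 in FS, 32.4% ± 5.88 in EpiSC_AF and 37.3% ± 3.56 in EpiSC_AFX (SD over libraries). Over all genes the share was 40.2% ± 0.629, 45.1% ± 0.650, 45.4% ± 0.0501 and 45.4% ± 0.615 in the same order. In the lists as deposited the order was the opposite in the FS mean and in all EpiSC libraries of the first set: 76.0% ± 21.7 of members and 67.3% ± 9.78 of genes had a peak in FS, 87.3% ± 1.70 and 70.4% ± 5.31 in EpiSC_AF, and 95.1% ± 5.78 and 74.2% ± 3.51 in EpiSC_AFX. The FS lines differed here, with 95.1% ± 3.40 of members against 76.0% ± 2.61 of genes in FS1 and 56.9% ± 8.49 against 58.7% ± 2.95 in FS2. In ES cells the members stayed below all genes, with 24.5% ± 8.99 against 44.8% ± 4.33. They were also below all genes in the Rd2_AFX libraries, with 38.2% against 56.4% in replicate 1 and 52.9% against 54.5% in replicate 2.

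**Figure D1:**
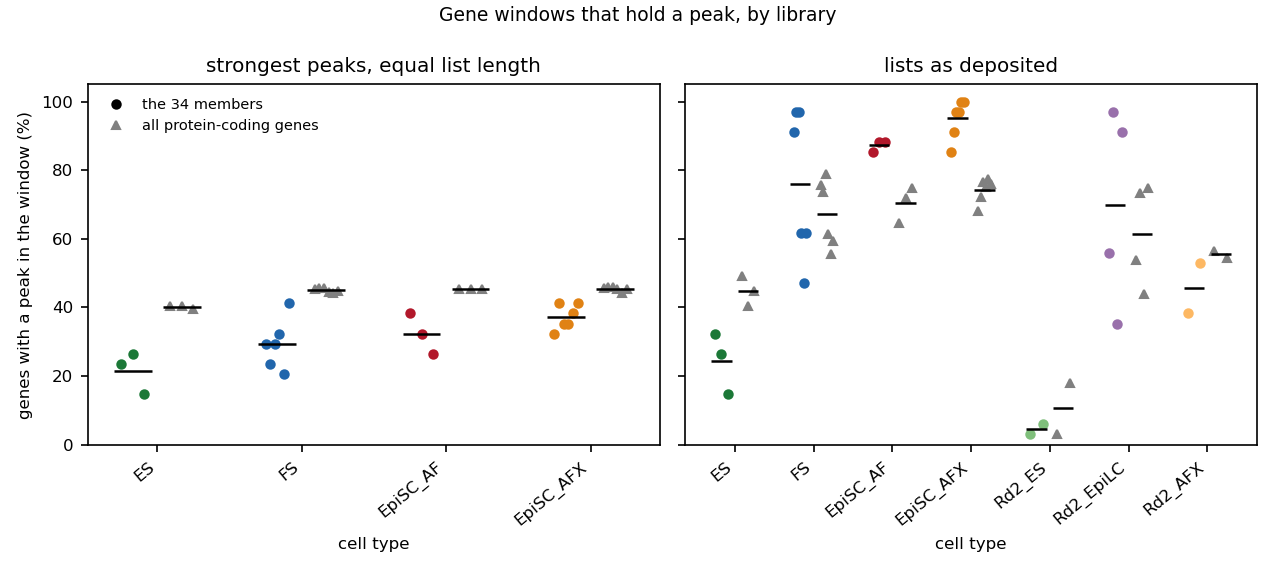
Share of gene windows (%) that hold at least 1 peak, for the 34 members (coloured circles) and all protein-coding genes (grey triangles), 1 point for each library with the mean as a bar. Left, the 8044 strongest peaks of each list; right, lists as deposited. Members lie below all genes on the left in every library. On the right they lie above all genes in all 9 EpiSC_AF and EpiSC_AFX libraries and below them in the Rd2_AFX libraries.

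The order changed as weaker peaks were counted. Among the 11796 strongest peaks, 50.5% ± 7.30 of members and 56.2% ± 0.340 of genes had a peak in FS, and 57.4% ± 7.14 and 56.4% ± 0.662 in EpiSC_AFX. Among the 23883 strongest peaks, which 3 FS and 4 EpiSC_AFX lists reached, the members were ahead with 90.2% ± 6.12 against 73.7% ± 0.105 in FS and 92.6% ± 2.94 against 73.8% ± 0.499 in EpiSC_AFX. The weakest 50% of each list as deposited held 60.3% ± 4.74 of the member peaks in FS, 62.4% ± 5.82 in EpiSC_AF and 62.1% ± 4.36 in EpiSC_AFX. The strongest 25% held 14.4% ± 3.46, 11.9% ± 3.97 and 13.5% ± 4.82 of them. The ES lists had too few member peaks for such shares, with 13, 9 and 6 in all.

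**Figure D2:**
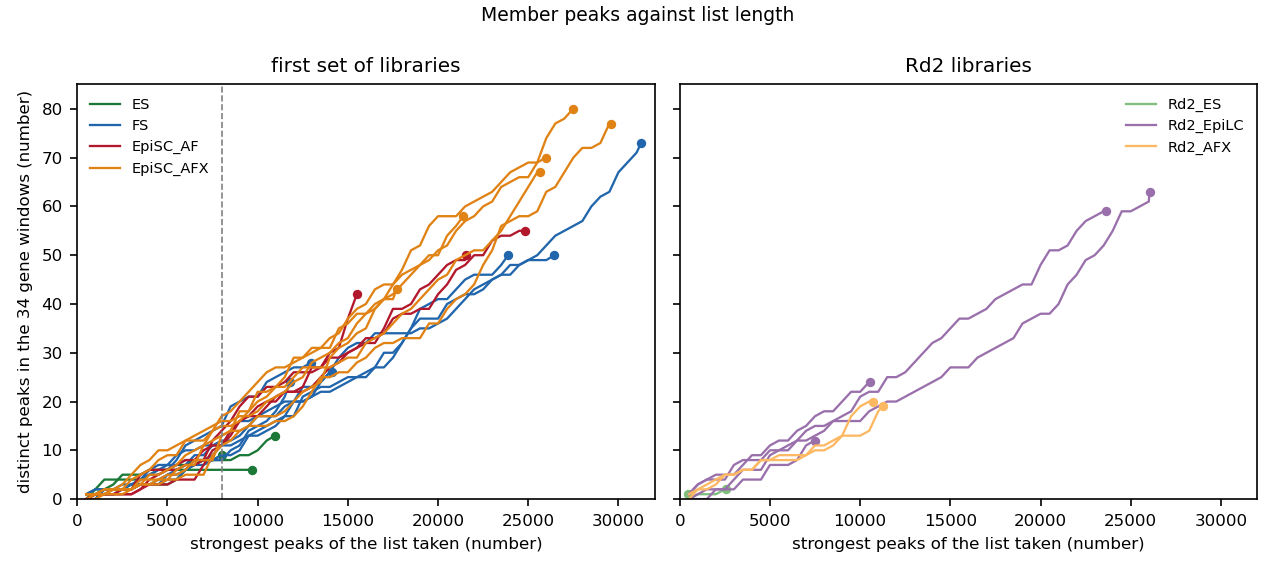
Number of distinct peaks in the 34 gene windows (vertical) among the strongest peaks of a list (horizontal, number of peaks), 1 line for each library, with a dot at the full list; left, the first set, and right, the Rd2 libraries. The dashed line marks 8044 peaks, where ES lists lie at 6 to 9 and EpiSC_AFX lists at 11 to 17; the FS and EpiSC lines climb faster in their weaker part and end at 24 to 80.

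The comparisons of ES cells with each of the other 3 cell types ask where chromatin differs between the naive state and the later states of pluripotency, and all 3 share the same ES libraries. At equal list length no member was called in any of the 3 comparisons, at an adjusted p of 0.05 over all genes tested by limma on log2(peaks + 0.5). Of the 34 members, 18 had peaks in 3 or more of the 18 libraries and were tested, and 3 of them had an unadjusted p under 0.05 in each comparison. The exact permutation test called 0 of the 13685 genes tested in each comparison, so its lack of member calls is not a result about the members. Its smallest possible p was 0.0119 against FS and EpiSC_AFX and 0.1 against EpiSC_AF. In ES against FS and ES against EpiSC_AFX none of the 18 had an unadjusted p under 0.05 by it. Of the 13685 genes tested, limma called 9.73% lower in ES than in FS, 10.9% lower than in EpiSC_AFX and 7.65% lower than in EpiSC_AF. The shares called higher in ES were 3.11%, 3.69% and 2.74%. Lhx9 had 0 peaks in each ES list and 1 in each EpiSC_AF list (limma's adjusted p = 0.0861), and it was the only member with non-overlapping groups in these 3 comparisons at equal length. Shares without overlap are over all 21883 genes, tested or not: 2.7% were lower in ES than in FS, 3.68% lower than in EpiSC_AFX and 5.94% lower than in EpiSC_AF.

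In the lists as deposited, 13 of 34 members were called lower in ES than in FS (36.7% of the 17849 genes tested were), 28 lower than in EpiSC_AFX (54.7%) and 16 lower than in EpiSC_AF (34.9%), all by limma with Benjamini-Hochberg adjustment. No member was higher in ES, as 0.712%, 0.829% and 0.459% of the genes tested were. The median log2 difference of the members was -1.13, -1.88 and -1.57, against -0.79, -1.06 and -0.81 over all genes tested. The share of members called was 38.2% against FS, 82.4% against EpiSC_AFX and 47.1% against EpiSC_AF. Among peaks whose deposited −log10 q, the authors' adjusted significance of a peak, was at least 5, the order was the opposite: 5.26%, 36.8% and 10.5% of 19 members tested were called lower in ES, below the 8.12%, 57.9% and 40.5% of the 12195 genes tested. The longer lists of the other cell types move all of these values, and the part of list length in them was not tested beyond the equal-length counts above. Without EpiSC_AF replicate 3 the 16 calls fell to 9. The exact permutation test called 12 members in ES against EpiSC_AFX (35.3%, against 28.7% of genes tested). In ES against FS and ES against EpiSC_AF it called 0 of the 17849 genes tested. Its lack of member calls there is thus not a result about the members. Its smallest possible p was 0.0119 with 3 against 6 libraries and 0.1 with 3 against 3.

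Some of these calls did not hold when 1 library was left out. Leaving out 1 library at a time ended the call of Irx3, Lhx6 and Six5 against FS, of Dlx3, Dlx5, Dlx6, Lhx5, Pax3, Pax4, Six5 and Six6 against EpiSC_AFX and of Lhx3, Lhx5, Lhx6, Pax4, Pax5, Pax7 and Six3 against EpiSC_AF, so that 10 of 13, 20 of 28 and 9 of 16 calls held throughout. Against FS, limma's adjusted p of Six5 reached 0.269 without ES replicate 3 and passed 0.05 without 5 other libraries (ES replicate 2, the 3 FS1 libraries and FS2 replicate 1). That of Irx3 lay between 0.0503 and 0.0745 without any ES or FS1 library or FS2 replicate 1, and that of Lhx6 was 0.0884 and 0.0849 without ES replicates 2 and 3. Against EpiSC_AFX, Dlx5 and Dlx6 had 0.0620 without ES replicate 1 and 0.0649 without ES replicate 3, Six5 had 0.0680 without ES replicate 3, Lhx5 and Pax3 had 0.0813 to 0.0849 without ES replicate 2 or 3, and the calls of Dlx3, Pax4 and Six6 were lost without several libraries of either group (highest values 0.111, 0.0814 and 0.154). Against EpiSC_AF, Pax5 had 0.0523 without EpiSC_AF replicate 1 and 0.0509 without replicate 3, Six3 had 0.0514 without replicate 3, and the highest values of Lhx3, Lhx5, Lhx6, Pax4 and Pax7, each lost without 5 of the 6 libraries, were 0.171, 0.146, 0.190, 0.111 and 0.0783.

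**Figure D3:**
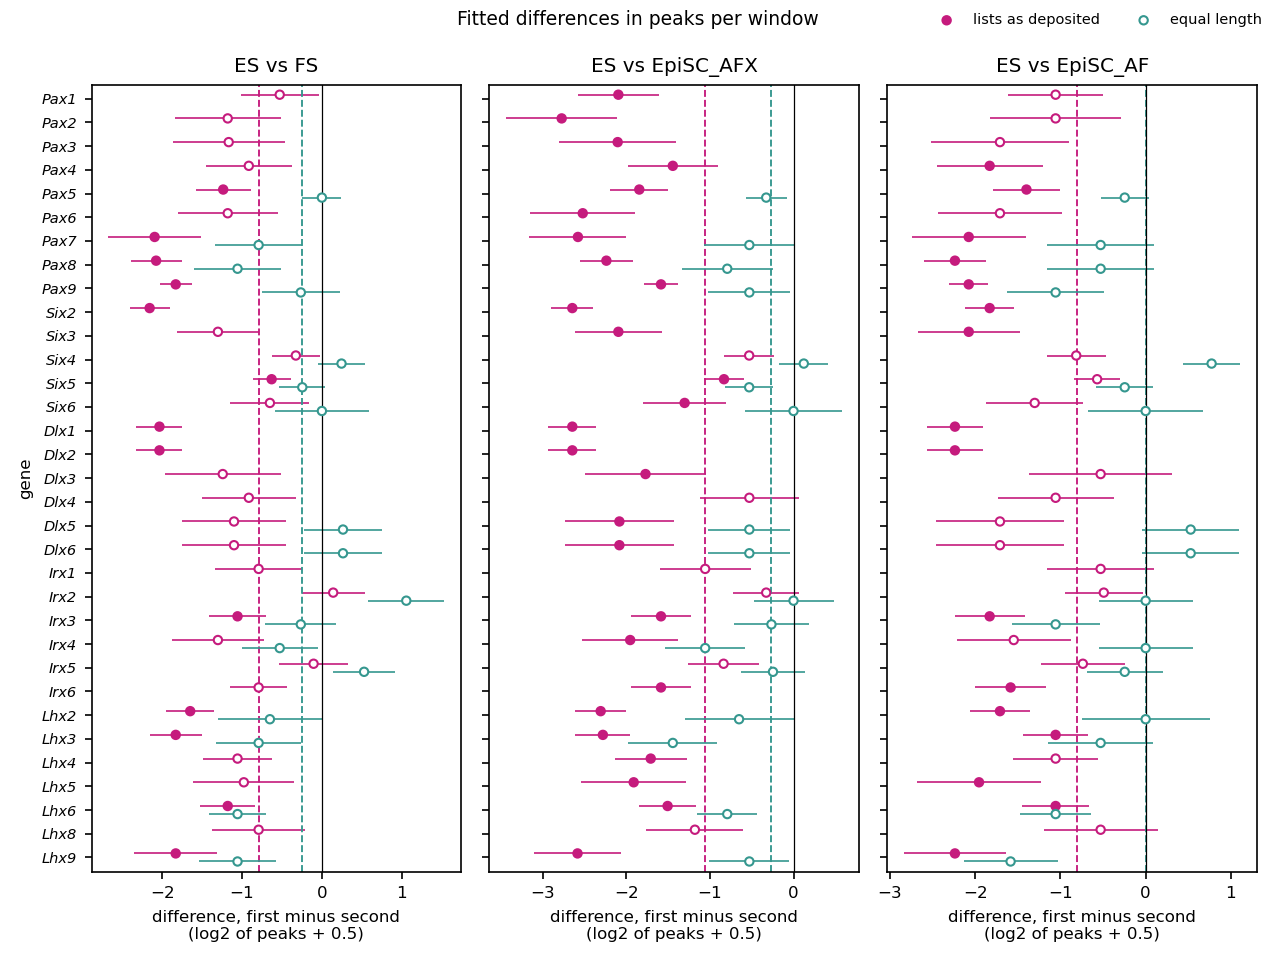
Fitted difference of ES minus FS, EpiSC_AFX or EpiSC_AF for 33 of the 34 members (log2 of peaks + 0.5), with the standard error as a bar, in the lists as deposited (magenta) and at equal list length (green). Filled circles passed an adjusted p of 0.05, and dashed lines give the median over all genes; the filled circles all lie left of 0 and all belong to the lists as deposited.

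Among the Pax genes, Pax5, which directs B cell identity, and Pax3, a regulator of neural crest and muscle precursors, had the most peaks. Pax5 has the longest window (226 kb) and 82 peaks over the 26 lists, which is 3.63 per 10 kb, close to the median of all genes (3.56) and below that of the members (4.72). It had 1 peak in each ES list, 1 to 5 in FS (median 3), 5, 2 and 4 in EpiSC_AF and 4 to 7 in EpiSC_AFX (median 4.5). ES libraries lay below all libraries of EpiSC_AF and EpiSC_AFX and touched the lowest FS library. The fitted difference was -1.24 ± 0.34 (SE) against FS (limma's adjusted p = 0.0106), -1.84 ± 0.34 against EpiSC_AFX (0.000522) and -1.40 ± 0.40 against EpiSC_AF (0.0137). Pax3 had 1, 0 and 0 peaks in ES, 0 to 5 in FS (median 1.5), 2, 3 and 1 in EpiSC_AF and 1 to 5 in EpiSC_AFX (median 3), and passed only against EpiSC_AFX (-2.10 ± 0.70, limma's adjusted p = 0.0199). At equal length every ES and FS library had 1 peak at Pax5, and the difference against EpiSC_AFX was -0.33 with an adjusted p of 0.428.

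Pax8 and Pax9 had no peak in any ES list and at least 1 in all 15 other lists of the first set. Pax9, needed for teeth and pharyngeal pouch organs, had 1 or 2 peaks in FS, 2, 2 and 1 in EpiSC_AF and exactly 1 in each EpiSC_AFX library. Pax8, a regulator of thyroid and kidney, had 1 to 2 in FS, 1, 3 and 2 in EpiSC_AF and 1 to 3 in EpiSC_AFX. Their differences against FS were -1.83 for Pax9 (limma's adjusted p = 6.01e-06) and -2.08 for Pax8 (0.000151), and against EpiSC_AFX -1.58 (1.73e-05) and -2.24 (5.76e-05). Where all ES libraries are at 0 the fitted value depends on the added 0.5 and is no fold change. Pax7, a muscle stem cell factor, also had no ES peak, and it passed the test in all 3 comparisons, with 0 to 4 peaks in FS and 1 to 5 in EpiSC_AFX.

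The kidney and eye regulators Pax2 and Pax6 passed the test against EpiSC_AFX and in neither of the other 2 comparisons, and the direct test of FS against EpiSC_AFX is given further on. Pax2 had 0 peaks in ES, 2, 1 and 4 in the FS1 libraries, none in FS2 and 1 to 5 in EpiSC_AFX (median 3), with a difference of -2.77 ± 0.66 (limma's adjusted p = 0.00287). Pax6 had 0 in ES, 0 to 2 in FS, 2, 0 and 3 in EpiSC_AF and 1 to 4 in EpiSC_AFX, with -2.52 ± 0.63 (0.00364). Pax4, of the pancreatic islet, had the fewest peaks of the family (16 over 26 lists) and none in ES, with -1.44 against EpiSC_AFX (0.0332) and -1.83 against EpiSC_AF (0.0324), and one of its regions lies at an end of Arf5 rather than at Pax4 itself. Pax1, a factor of the vertebral column, had no ES peak and was lower in ES than in EpiSC_AFX (-2.09, 0.00234).

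Among the sine oculis homeobox genes, Six5 and Six4, which act in muscle among other tissues, had peaks in every library of the first set. Six5 had 62 peaks over the 26 lists and the highest density of all members, 14.1 per 10 kb, in a window that it shares with Dmpk, Dmwd and Bhmg1. It had 2, 2 and 1 peaks in ES, 2 to 4 in FS (median 3), 2, 3 and 3 in EpiSC_AF and 2 to 4 in EpiSC_AFX (median 3.5). The difference was -0.63 against FS (limma's adjusted p = 0.048) and -0.83 against EpiSC_AFX (0.00848), smaller than the median of all genes in both. Six4 had 1, 1 and 2 peaks in ES, 1 to 3 in FS and EpiSC_AFX and 3, 3 and 2 in EpiSC_AF, and no comparison with ES called it (adjusted p = 0.413, 0.142 and 0.0801 in the order FS, EpiSC_AFX, EpiSC_AF).

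Six2, which maintains kidney progenitors, had the lowest adjusted p of the family in all 3 comparisons. It had 0 peaks in every ES list, 1 to 3 in FS (median 2), 1, 1 and 2 in EpiSC_AF and 2 to 3 in EpiSC_AFX (median 3). The ES libraries lay below all others, where 10.1% of genes were lower in ES than in FS without overlap, 27.0% lower than in EpiSC_AFX and 24.8% lower than in EpiSC_AF. The members with such separation numbered 7 (Dlx1, Dlx2, Lhx2, Lhx3, Pax8, Pax9, Six2), 18 and 15 of 34. Limma gave Six2 -2.16 ± 0.25 against FS (adjusted p = 1.24e-05), -2.65 ± 0.25 against EpiSC_AFX (1.11e-06) and -1.83 ± 0.29 against EpiSC_AF (0.000285). At equal length only 2 of 18 libraries kept a Six2 peak, 1 in FS and 1 in EpiSC_AF. Six3, its neighbour and a forebrain and eye regulator, had the fewest peaks of the family (23 over 26 lists) and none at equal length. It had 0 peaks in ES, 0 to 2 in FS, 1, 2 and 2 in EpiSC_AF and 1 to 4 in EpiSC_AFX, with -2.09 against EpiSC_AFX (0.00352) and -2.08 against EpiSC_AF (0.0142). Six6, an eye and pituitary factor, had 1, 0 and 0 in ES and 1 or 2 in EpiSC_AFX (-1.30, 0.0361).

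Dlx1 and Dlx2, which drive forebrain interneurons, share a window and had the same counts in the first set, 0 in ES, 1 to 3 in FS (median 1.5), 1, 2 and 3 in EpiSC_AF and 2 to 3 in EpiSC_AFX (median 3). Both passed the test in all 3 comparisons with ES, with -2.03 against FS (limma's adjusted p = 7.27e-05) and -2.65 against EpiSC_AFX (4.63e-06), and as they count largely the same peaks they are not 2 separate observations. Dlx6 and Dlx5, of jaw and limb, had 0, 1 and 0 peaks in ES, 0 to 3 in FS, 1, 2 and 3 in EpiSC_AF and 1 to 5 in EpiSC_AFX. They passed limma's test against EpiSC_AFX (-2.08, adjusted p = 0.0144) and in neither of the other 2 comparisons (0.194 and 0.0888). Dlx3, of skin, teeth and placenta, had 0 in ES and 0 to 3 in EpiSC_AFX, and its difference there was the member call nearest the threshold (-1.77, 0.0497). Dlx4 had 11 peaks over the 26 lists, the fewest of the family, and passed no comparison.

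Among the Irx genes some windows had a peak in nearly every library of the first set and others in few. Irx5 and Irx2 kept 1 peak in each ES list, against 0 to 2 in FS, 2, 2 and 2 (Irx5) or 2, 1 and 2 (Irx2) in EpiSC_AF, 1 to 4 (Irx5) and 1 to 3 (Irx2) in EpiSC_AFX. Neither passed any comparison, with limma's adjusted p between 0.106 and 0.882 in the lists as deposited. Irx3, which patterns neural tube and limb, had 0 in ES, 0 or 1 in FS, 1, 2 and 1 in EpiSC_AF and 1 in each EpiSC_AFX library, and was lower in ES in all 3 comparisons (-1.06, -1.58 and -1.83 against FS, EpiSC_AFX and EpiSC_AF, adjusted p = 0.0289, 0.0019 and 0.00363). Irx6 followed in the comparisons with EpiSC_AFX and EpiSC_AF (-1.58 in both, 0.00201 and 0.00889). Irx4, of the heart ventricle, had 0 in ES, 0 to 2 in FS, 0, 2 and 2 in EpiSC_AF and 1 or 2 in EpiSC_AFX, without overlap in the last, and passed there only (-1.95 ± 0.58, 0.0104). Irx1 was the member with the fewest peaks in all, 10 over 26 lists, and passed none (adjusted p from 0.107 to 0.535).

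Lhx2, of forebrain, eye and hair follicle, had 67 peaks over the 26 lists and 9.51 per 10 kb, the most of its family. It had 1, 1 and 0 peaks in ES, 2 to 4 in FS (median 3), 3, 2 and 4 in EpiSC_AF and 4 to 5 in EpiSC_AFX (median 5), so that ES lay below all others. The differences were -1.65 ± 0.30 (limma's adjusted p = 0.00063), -2.31 ± 0.30 (2.62e-05) and -1.71 ± 0.35 (0.00189) against FS, EpiSC_AFX and EpiSC_AF. Lhx9, of gonad and brain, had 0 in ES, 0 to 4 in FS, 1, 2 and 3 in EpiSC_AF and 1 to 4 in EpiSC_AFX, and was called in all 3 (-1.83, -2.58 and -2.24). Lhx3, of the pituitary and motor neurons, was lower in ES, with -1.83 against FS (0.00053), -2.28 against EpiSC_AFX (6.29e-05) and -1.06 against EpiSC_AF (0.0406), where 1 EpiSC_AF library had no peak either. Its relative Lhx4, also of the pituitary, had 0 peaks in ES, 0 or 1 in FS, 0, 1 and 1 in EpiSC_AF and 1 or 2 in EpiSC_AFX, and passed limma's test against EpiSC_AFX only (-1.71 ± 0.43, adjusted p = 0.00394). Lhx5, a forebrain regulator, had 1, 0 and 0 in ES, 2, 2 and 3 in EpiSC_AF and 1 to 4 in EpiSC_AFX, with -1.96 against EpiSC_AF (0.0482) and -1.91 against EpiSC_AFX (0.0191).

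Lhx6, an interneuron regulator, was the member nearest to the threshold at equal length. It had 1, 0 and 0 peaks in ES, exactly 1 in all 6 FS and all 3 EpiSC_AF libraries, and 1 in 5 of 6 EpiSC_AFX libraries. The difference was -1.06 ± 0.36 against FS (limma's adjusted p = 0.0645), and without ES replicate 1, the library with the peak, it was -1.58 (0.00487). Lhx8, which specifies cholinergic neurons and oocytes, had the fewest peaks of its family (11 over 26 lists), none of them at equal length.

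**Figure D4:**
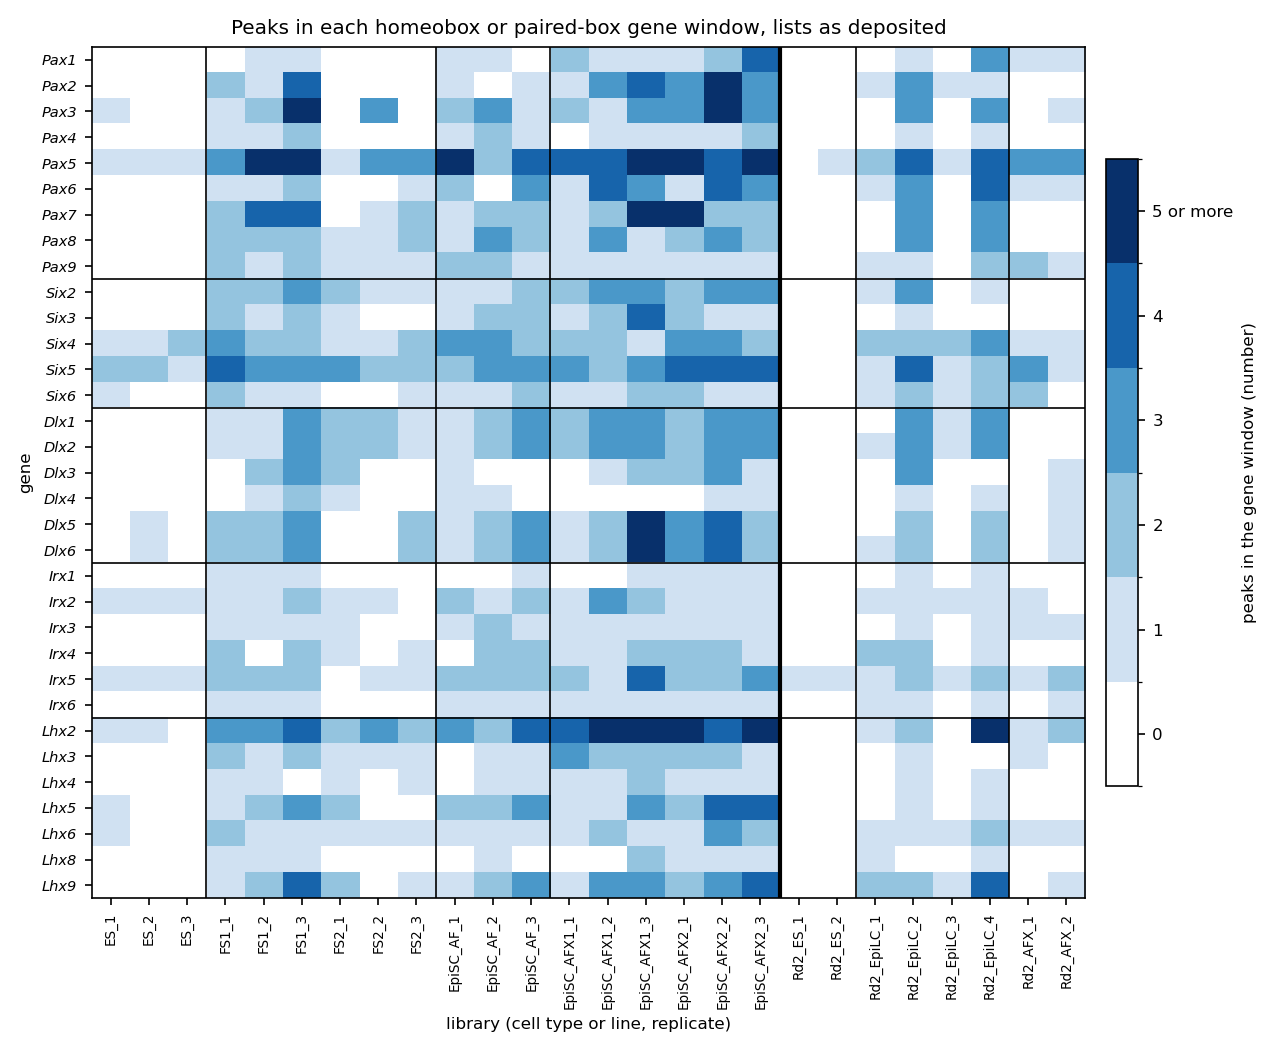
Number of peaks in the windows of 33 of the 34 members (rows, by family) in each of the 26 lists as deposited (columns, by cell type; the thick line separates the Rd2 set). The 3 ES and 2 Rd2_ES columns are nearly white, the windows of Pax5, Six5, Six4 and Lhx2 are filled in most other libraries, and the FS2 columns are paler than the FS1 columns.

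No full ES list held a peak at 21 of 34 members (61.8%), while 38.6% of all genes had none. Dlx1, Dlx2, Pax8, Pax9 and Six2 had no ES peak and a peak in all 15 other lists of the first set, which is 14.7% of members and 3.72% of all genes. A peak in all 3 ES lists was found at 5 members, Irx2, Irx5, Pax5, Six4 and Six5. These counts again rest on shorter ES lists, and at equal length 7 members (Dlx3, Dlx4, Irx1, Lhx5, Lhx8, Pax2, Six3) had no peak in any of the 18 libraries. No share of all genes is given for these 5 and 7 members, so neither count is a result about the members. Member windows had a median length of 49.9 kb, against 57.2 kb over all genes.

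No single member was called different between formative stem cells and AFX-cultured epiblast stem cells. Of 34 members tested in the lists as deposited, 0 passed limma's adjusted p of 0.05 and 9 had an unadjusted p under 0.05. The exact permutation test called no gene, member or other. Of all genes tested by limma, 0.112% were lower in FS and 0.0168% higher, so that few calls were made anywhere. At equal length, 0 of 18 were called (0.0438% of genes tested lower and 0.139% higher in FS) and 2 had an unadjusted p under 0.05. The lowest adjusted p was that of Pax1, with 0 to 1 peaks in FS and 1 to 4 in EpiSC_AFX (-1.57 ± 0.40, 0.224). Pax2 followed with -1.59 (0.348). The median difference of the members was -0.61, against -0.25 for all genes.

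The FS lines themselves stood apart in the lists as deposited. The windows together held 50, 50 and 73 peaks in FS1 and 26, 24 and 28 in FS2, which have shorter lists, and 43, 58 and 80 in EpiSC_AFX1 and 67, 77 and 70 in EpiSC_AFX2. Among the 11796 strongest peaks the order of the FS lines turned, with 18.3 ± 1.53 (SD, n = 3) in FS1 and 23.7 ± 3.51 in FS2. At that length EpiSC_AFX1 and EpiSC_AFX2 had 23.3 ± 3.51 and 23.0 ± 5.29. It was the whole list of FS2 replicate 2, and the other FS2 lists held 14147 and 12960 peaks, but the FS1 lists held 23883 to 31263. The FS2 lists were thus taken nearly whole and the FS1 lists only in their stronger part. Among the 23883 strongest, which all FS1 and EpiSC_AFX2 lists reach, FS1 held 46 to 50 member peaks and EpiSC_AFX2 56 to 67, without overlap. When the 6 lines were fitted as separate groups on the lists as deposited, Irx6, Pax1 and Pax2 were called lower in FS than in EpiSC_AFX, 3 of 34 members (8.82%) against 2.76% of genes tested. Irx6 had 1 peak in each FS1 and each EpiSC_AFX library and none in FS2, so that its libraries did not vary within a line (limma's adjusted p = 7.94e-07). Pax1 and Pax2 had adjusted p-values of 0.0333 and 0.0251 in that fit.

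Peaks at the members fell into 180 regions over the 26 lists, merged where they overlapped, of 75600 regions in all. A single list held 67 of them (37.2%, against 41.7% of all regions). In 164 no ES list had a peak, a count given without a share over all regions, and the ES lists were the shortest of the first set. Of these 164, 73 had a peak in at most 1 of the 15 FS and EpiSC lists, and 20 had one in Rd2 lists only. Of the 1021 peaks in the windows, 30.9% were within 1 kb of a member's start or end, 35.6% elsewhere in a member's span, 8.42% at an end of another gene and 25.2% elsewhere in the flanks. Regions held by all 6 EpiSC_AFX lists and no ES list numbered 17 at the members, against 8.23% of the 51167 regions of these cell types, of which 127 lie at members. For EpiSC_AF the count was 14 of 79 member regions (12.5% of all), and for FS 2 of 106 (2.91%). No member region was held by all ES lists and absent from all lists of FS, EpiSC_AF or EpiSC_AFX. Over all regions such a pattern was also rare, with 0.507% against FS, 0.861% against EpiSC_AF and 0.498% against EpiSC_AFX.

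**Figure D5:**
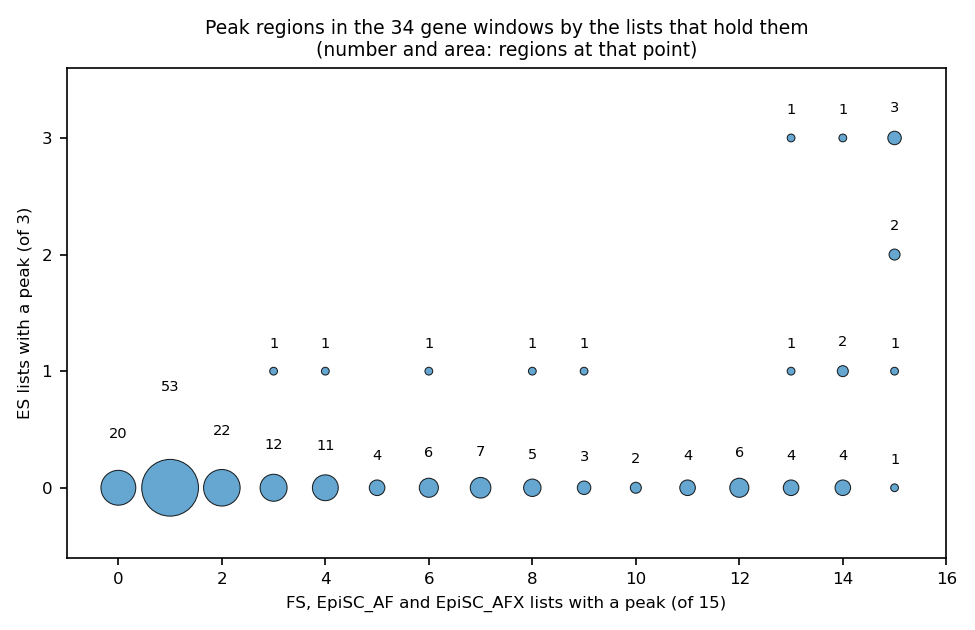
Regions in the 34 gene windows by how many of the 15 FS and EpiSC lists (horizontal) and of the 3 ES lists (vertical) hold a peak there, lists as deposited, with the number of regions printed and shown as area. Most regions lie on the bottom row, without an ES peak; 5 lie at the top, in all 3 ES lists.

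A peak in all 18 libraries at equal list length was found in 2 of 44 member regions, against 1500 of 25068 regions in all. Neither of these 2 lay at a member promoter. An intragenic site of Pax5 (chr4:44704349-44704782, build mm10), 6.13 kb from the Pax5 start, had a peak at equal length in all 18 libraries. The only other such region in a member window, chr7:19075908-19076367, lies at an end of Dmwd, 18.4 kb from Six5. A region at ends of both Six4 and Mnat1 (chr12:73112759-73113666), which holds the Six4 promoter sequence printed above, had a peak in 17 of 18 libraries. Mnat1 encodes a subunit of the kinase complex that activates cell cycle kinases, and which of the genes the peak serves was not tested. An intergenic site beside Irx5 (chr8:92355786-92356395), 1.71 kb from the gene, had a peak in 16 of 18, and in the lists as deposited its region had one in 25 of 26, including both Rd2_ES lists. A site in Lhx6 (chr2:36091301-36091987) had a peak in 15 of 18, 1 of them from ES.

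Other sites were shared by fewer libraries and separated the groups only in part. Between Dlx5 and Dlx6, the region chr6:6874117-6874474 had a strong peak in 4 of 6 EpiSC_AFX libraries and in no other library of the first set, but in the lists as deposited its region also had a peak in 4 of 6 FS and all 3 EpiSC_AF lists. Upstream of Pax7, chr4:139850833-139851107 had a strong peak in 3 of 6 FS libraries and no EpiSC_AFX library, and in the lists as deposited in 5 of 6 FS and 1 of 6 EpiSC_AFX lists. An intragenic site of Pax8 (chr2:24460715-24461238) had a peak in all 15 FS and EpiSC lists and no ES list. None of these patterns was tested at the level of regions.

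A smaller share of the member promoters than of all promoters had a peak, on average, in each cell type of the first set. A peak in the lists as deposited lay at 11.8% ± 1.86 of the 31 member promoters in ES, 32.3% ± 9.12 in FS, 40.9% ± 8.12 in EpiSC_AF and 42.5% ± 5.56 in EpiSC_AFX. Over all promoters the shares were 21.1% ± 2.11, 39.5% ± 9.35, 42.8% ± 3.90 and 46.7% ± 3.13. Promoters with at least 17 CG dinucleotides, the median of the members, were set apart in both groups. Among the 17 member entries that reach it the shares were 9.80% ± 3.40, 31.4% ± 11.6, 47.1% ± 11.8 and 47.1% ± 7.44 in the same order. Among all 9070 such promoters they were 40.2% ± 3.83, 69.4% ± 15.2, 75.5% ± 5.39 and 80.8% ± 4.29. The member share was the lower one in each of the 18 libraries, and the difference was not tested. Over the 26 lists, 11 of 31 entries never had a peak, and neither did 38.7% of all promoters. The 2 entries of Six4 had a peak in all 15 FS and EpiSC lists, and no other entry did. Members varied widely: Lhx2 had a peak at its inner start in 21 lists, Irx2 in 20, Pax9 and Six6 in 18 each. The Irx2 promoter was the one besides Six4 and Lhx2 that was open in 2 or more ES lists.

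The letters TAAT or ATTA, the core that many homeodomains bind, occurred on either strand in 13 of the 31 member promoters and in 51.8% of all promoters of the same length. TAAT read on one strand is ATTA on the other, so both are 1 motif. Among the printed sequences they occur in those of Six4, Six2 and Pax5 and not in those of Dlx2 and Lhx8. A match describes the letters of the window only.

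In the Rd2 set, the lists of Rd2_ES were so short that they held 1 and 2 member peaks, at Irx5 in both and at Pax5 in 1. The Rd2_EpiLC lists held 24, 59, 12 and 63, and the Rd2_AFX lists 19 and 20. At the length of the shortest list, 471 peaks, only 789 genes could be tested, 1 of them a member, which was not called. Of these 789, limma called 5.45% lower in Rd2_ES than in Rd2_EpiLC and 3.68% lower in Rd2_AFX than in Rd2_EpiLC. In the lists as deposited, 8 of 24 tested members were called lower in Rd2_ES, against 40.7% of the 14324 genes tested. Among the 8 were Dlx2, Irx2, Lhx6, Lhx9, Pax2, Six4 and Six5. The libraries of 9 members did not overlap, as was so for 27.2% of genes. The 8 calls became 2 without Rd2_ES replicate 1, 5 without Rd2_ES replicate 2, 5 without Rd2_EpiLC replicate 2 and 16 without Rd2_EpiLC replicate 3, the library with the shortest EpiLC list. Six4 had 0 peaks in both Rd2_ES lists and 2, 2, 2 and 3 in Rd2_EpiLC (-2.44 ± 0.17, limma's adjusted p = 0.000156), and in the first set the longer ES lists all had a Six4 peak.

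Rd2_AFX and Rd2_EpiLC could be compared at 7469 peaks, a length chosen after the lists were seen. The windows then held 14 ± 2.16 (SD, n = 4) member peaks in Rd2_EpiLC and 10 and 11 in Rd2_AFX. Six4 had 2 peaks in each of the 4 Rd2_EpiLC libraries and 1 in both Rd2_AFX libraries. Limma called it lower in Rd2_AFX (-0.74, adjusted p = 2.27e-06), as one of 2 calls among 10 members tested, where 1.37% of the 10315 genes tested were lower and 0.669% higher. The groups did not overlap at Six4, as was so, lower in Rd2_AFX, for 2 members and 1.19% of genes. The Six4 counts did not vary within a group, so this p-value rests on the spread borrowed from other genes, and the exact permutation test cannot go below 0.0667 with 4 against 2 libraries. Pax6 had 1 peak in both Rd2_AFX libraries and 0 in all 4 Rd2_EpiLC libraries, where 2.12% of genes were higher without overlap. It was in too few libraries to be tested. With the lists as deposited, limma called 0 of 24 members (1.2% of genes tested lower, 0.0349% higher), 5 had an unadjusted p under 0.05, Dlx2, Pax2 and Six4 were lower in Rd2_AFX without overlap (2.01% of all genes), and leaving out 1 library gave at most 1 call.

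Partners and relatives of the members showed the same dependence on list length. For the counts below, limma called 54.7% of genes tested lower in ES than in EpiSC_AFX in the lists as deposited and 10.9% at equal length. Of 6 Eya and Dach cofactors, 3 were called lower in ES than in EpiSC_AFX in the lists as deposited (Eya1, Eya3, Eya4) and none at equal length, with 2 tested. Of 11 LIM cofactors and other LIM-homeobox genes, 10 were lower in the lists as deposited and 1 at equal length, Isl2, a motor neuron factor (-1.83 ± 0.25, limma's adjusted p = 1e-04). Isl2 passed at equal length against FS and EpiSC_AF as well. Of 8 TALE homeobox partners, which bind DNA beside other homeodomain proteins, 6 were lower in the lists as deposited and 1, Pbx2, at equal length. Among 24 other homeobox regulators tested, 11 were lower in the lists as deposited, including Msx1, Msx2 and Gbx2, and none of 9 at equal length. Of 14 Polycomb genes, whose products keep such regulators silent, 7 were lower in the lists as deposited and 2, Ring1 and Pcgf2, at equal length. No gene of these 5 lists was called higher in ES than in EpiSC_AFX (0.829% of genes tested were in the lists as deposited and 3.69% at equal length). Meis2, a TALE gene, was called higher in ES than in FS at equal length (1.58 ± 0.46, limma's adjusted p = 0.031), as were 3.11% of genes tested. The median differences in the lists as deposited were -1.17, -1.89, -1.61, -1.38 and -0.91 in the order named, against -1.06 over all genes.

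Windows of genes that mark other cells moved with the same lists, where 54.7% of genes tested were called lower in ES than in EpiSC_AFX as deposited. The 4 neural markers together had, in the lists as deposited, 1 to 2 peaks in ES and 6 to 10 in EpiSC_AFX, with 3 of 4 called lower in ES, and 4 primitive endoderm markers had 0 to 1 and 4 to 11, with 3 of 4 called. The 6 feeder fibroblast markers had 3 to 4 and 6 to 12, with 3 of 6 called. Olig2, Gata6, Foxa2, Col1a2 and Twist2 had no peak in any ES list, and Twist2 had none in EpiSC_AF, while each of the 14 markers had a peak in FS and in EpiSC_AFX. At equal length no neural or endoderm marker was called, and of the fibroblast markers Lum was higher in ES in all 3 comparisons and Col1a1 lower in ES than in FS (-0.94, limma's adjusted p = 0.0375). Open chromatin at such genes does not count cells of another type, and the part of such cells in the members' values was not tested.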

How the data were processed

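For each of 26 mouse ATAC-seq libraries the authors deposited 1 list of broad peaks, so replicates were not pooled. Trim Galore, Bowtie, Picard, MACS2 and build mm10 appear in the submitters' processing notes, and the steps, settings and versions are not given in the sources used here. For each peak the authors deposited a score, a fold enrichment ratio over a background not given in the sources used here, and −log10 p and −log10 q. The shortest peak is 150 bp in the first set and 110 bp in the Rd2 set, so the sets were never compared in 1 test. Read counts were not used, so precision could not be tied to depth, and a shorter list lacks weak peaks. Genes, spans and promoters came from RefSeq tables of the GRCm38 build.

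Peaks overlapping a gene's span plus 20 kb on each side were counted in the lists as deposited and among equal numbers of peaks ranked by −log10 p (8044 in the first set, 471 in the Rd2 set). Counts as log2(peaks + 0.5) were compared with limma 3.58.1 (R 4.3.3; trended empirical Bayes) over genes with a peak in at least 3 libraries, with Benjamini-Hochberg adjustment over all genes tested and a threshold of 0.05. The model had the 4 cell types of the first set, or the 3 of the Rd2 set, as groups, and the exact permutation test (two-sided), other windows, filters, rankings and left-out libraries were alternatives. Tables and figures were made with Python 3.11.15. Each step was tested on simulated data. The members and the gene lists were chosen with earlier results of these data known. Values were given for the 2 members with the most peaks and the one with the fewest in each family, for members called in a comparison with ES cells of the first set, and for members with a promoter peak in every library or in none, and the others by counts or as examples. One member enters the counts over all members and is not reported here on its own. The promoter table is on GRCm38.p6, whose chromosomes have the coordinates of mm10.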

Additional observations from a re-analysis of the deposited data

Results flagged for a closer look

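Of 50 sets of libraries checked for 1 value far from the rest, 3 held one, and chance gives about 1 in 20. Among the EpiSC_AFX libraries, EpiSC_AFX1 replicate 1 had a peak within 1 kb of an end of 13 members in the list as deposited, and the other 5 libraries had 18 to 20. That library also has the shortest EpiSC_AFX list. At equal list length, EpiSC_AFX2 replicate 2 had a peak in 44.2% of all gene windows, against 45.3% to 45.9% in the other EpiSC_AFX libraries, and a mean of 0.621 peaks per gene window, against 0.650 to 0.657. The cause was not tested.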

How the results depend on the processing

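The sign was checked for members called in the lists as deposited, under 4 alternatives. None changed sign at equal list length where it had a value, with the replicate block, with 6 lines as groups or with a library left out. In ES against EpiSC_AFX, 15 of 28 such members had a value at equal length. Signs under the other alternatives, and those of other genes, were not compared. In the order ES against FS, EpiSC_AFX and EpiSC_AF, limma called 1757, 2003 and 1422 genes at equal length. It called 6674, 9903 and 6309 in the lists as deposited, 999, 7073 and 4942 among peaks with −log10 q of at least 5, and 2917, 3092 and 2146 with 50 kb flanks. With 5 kb flanks it called 1119 and 1197 in the first 2 of these comparisons. The exact permutation test called 0 in each at equal length, where its smallest possible p was 0.0119, 0.0119 and 0.1. Members called went from 0 to 13, 28 and 16 in the lists as deposited and to 1, 7 and 2 among peaks with −log10 q of at least 5. Ranking by fold enrichment gave 2 of 19 members against FS (Irx2 higher and Pax8 lower in ES), where 1434 of 13968 genes were called. Covered base pairs gave 1 of 18 members (Lhx6) against EpiSC_AFX, where 2922 of 13685 genes were called. The exact permutation test on the lists as deposited gave 0, 12 and 0, where it called 0, 5125 and 0 of 17849 genes. The difference in summed member peaks, -3.33, -6.50 and -4.67 at equal length, was -32.5, -56.5 and -39.7 in the lists as deposited and -6.17, -12.8 and -7.67 among peaks with −log10 q of at least 5. Left-out libraries gave 1159 to 1816, 1409 to 1919 and 757 to 1101 genes, 0 to 1 member in each comparison, and -4.00 to -2.50, -7.17 to -5.67 and -5.33 to -3.33 summed peaks. The 1 member was Lhx6 without ES replicate 1 (all 3 comparisons) or EpiSC_AFX1 replicate 1, and Lhx3 without EpiSC_AFX2 replicate 1. In the lists as deposited they gave 10 to 17, 20 to 29 and 9 to 15 members.

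For FS against EpiSC_AFX, 25 genes were called, and 23 in the lists as deposited, 50 with 50 kb flanks, 15 by covered base pairs, 14 without the filter, 240 with 6 lines as groups, 0 by the exact test and 10 to 64 with a library left out. Members called stayed at 0 with each library left out and became 3 with 6 lines as groups on the lists as deposited. Their summed peaks differed by -3.17 (-3.97 to -2.57 with a library left out), by -24.0 in the lists as deposited and by -6.67 among peaks with −log10 q of at least 5.

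For Rd2_ES against Rd2_EpiLC, 45 genes were called, and 5826 in the lists as deposited, 24 by fold enrichment, 261 with −log10 q of at least 5, 0 by the exact test and 56 to 78 with a library left out. The exact test could not go below 0.0667 in either Rd2 comparison, so its 0 calls were fixed in advance. Members called went from 0 to 8 in the lists as deposited (2 to 16 with a library left out, 0 by the exact test), and summed peaks from 0 (-0.50 to 0.50) to -38.0, or -4.25 with −log10 q of at least 5. For Rd2_AFX against Rd2_EpiLC, 31 genes were called, and 177 in the lists as deposited, 17 by fold enrichment, 56 with −log10 q of at least 5, 210 at 7469 peaks, 95 without the filter, 0 by the exact test and 35 to 53 with a library left out. Members called were 0, and 2 at 7469 peaks, with 0 to 1 in the lists as deposited with a library left out. Summed peaks differed by 0 (-0.50 to 0.50), by -20.0 in the lists as deposited, by -1.75 with −log10 q of at least 5 and by -3.50 at 7469 peaks.

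Same-numbered libraries of the first set had a median correlation of 0.000378 (-0.0406 to 0.0238), and differently numbered ones had a median of 0.000459. A shared number thus did not go with a higher correlation. With the number as a replicate block, 0 of 18 members tested were called at equal length. In the lists as deposited 12, 27, 13 and 0 of 34 were called, in the order ES against FS, EpiSC_AFX and EpiSC_AF, then FS against EpiSC_AFX. Of all genes tested, this fit called 1765, 1944, 1344 and 20 of 13685 at equal length and 6434, 9682, 6005 and 6 of 17849 as deposited. No paired analysis was possible in the Rd2 set because the titles of the Rd2_EpiLC libraries carry cell and run numbers that match no number of the other groups. The 7469-peak length and the tests beside the lists as deposited were chosen after seeing the data. Why the values moved was not tested, apart from the list lengths that the settings themselves set.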
